A study of Homo sapiens with 8 samples.

Results

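The angiotensin and endothelin systems were followed in differentiated and undifferentiated SH-SY5Y cells. SH-SY5Y is a line grown from a human neuroblastoma, a tumour of sympathetic precursor cells. The set holds 10 of the 52719 genes summed from the deposited table, 5 of the angiotensin system (AGT, ACE, LNPEP, AGTR1 and ATP6AP2) and 5 of the endothelin system (EDN1, ECE1, ECE2, EDNRA and EDNRB). The members were selected on their transcript levels in these libraries, with the contrast between differentiated and undifferentiated cells already known, so that contrast is given for them as a description and carries no test. Differentiated cells had received 1 µM 9-cis retinoic acid, a ligand of the retinoic acid receptors and of the retinoid X receptors, for 7 days (4 libraries, replicates 21 to 24). Undifferentiated cells had no stated treatment (4 libraries, replicates 17 to 20), and their time in culture is not given in the labels. All cells came from a single tumour line grown in the same medium with foetal calf serum. The labels do not say whether the libraries of a group came from separate cultures. Every error below therefore rests on the spread between libraries, which may be technical.

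In the angiotensin system the precursor angiotensinogen is cut to angiotensin I, and angiotensin-converting enzyme (ACE) turns this into angiotensin II, which acts mainly at the type 1 receptor AGTR1, a receptor coupled to Gq proteins and phospholipase C. In the endothelin system the precursor of endothelin-1 is cut by furin-like proteases to big endothelin-1 and then by endothelin-converting enzymes, and the mature peptide acts at the Gq-coupled receptors EDNRA and EDNRB. Both systems are best known for constricting blood vessels, and both also act in the sympathetic nervous system and the adrenal medulla. Endothelin signalling through EDNRB is needed for neural crest derivatives such as enteric neurons and melanocytes.

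Levels are TPM, each transcript's share of a library after correction for its length, scaled to a library sum of 1000000 and added up over the transcripts of a gene. TPM keep no read depth, so the depth behind each value is unknown and no counting interval is given; values near 0 have an error that cannot be stated. Differences were taken between log2(TPM + 1) values, so those of low genes are understated. They carry the standard error (SE) of a linear model fitted to all genes. Each SE is moderated, so it draws on the spread of all genes as well as on that of the gene itself. Of the libraries, differentiated replicate 22 stood apart by transcript length. Its values relative to the other differentiated libraries had a median log2 difference of 0.04 for protein-coding genes whose main transcript is under 2000 bases, −0.14 from 2000 to under 5000 bases and −0.39 at 5000 bases or more. In differentiated replicate 21 the medians of the same length classes ran the other way, at −0.02, 0.12 and 0.29. Because these are bulk samples, fewer cells expressing a gene and less RNA per cell cannot be told apart.

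The stretches before 3 start sites are shown, because EDN1, ATP6AP2 and AGT were the 3 members with the largest differences upward. The RefSeq promoter table (build GRCh38.p14) held windows of 250 bases before a start site for 8 of the 10 members, 16 windows in all. Each is written 5′ to 3′ on the strand of the gene, with motif matches in capitals, read on either strand. The motifs searched were TATAAA (the TATA box), CCAAT (the CCAAT box), GATAAG (bound by GATA factors), TGACTCA (bound by AP-1) and 4 half-sites of nuclear receptors, which were AGGTCA and its variants with AGT (AGTTCA), with GGG (GGGTCA) or with GGT (GGTTCA) in front. The EDN1 stretch is chr6:12290111-12290360 (plus strand, next to the start at 12290361), the ATP6AP2 stretch is chrX:40580720-40580874 (plus strand, start at 40580970, cut where the first annotated exon inside the window begins, and inside the gene, whose first annotated start lies upstream at 40579372), and the AGT stretch is chr1:230714129-230714158 (minus strand, RefSeq start at 230714122, inside the first exon of the longer GENCODE 29 transcript).
EDN1: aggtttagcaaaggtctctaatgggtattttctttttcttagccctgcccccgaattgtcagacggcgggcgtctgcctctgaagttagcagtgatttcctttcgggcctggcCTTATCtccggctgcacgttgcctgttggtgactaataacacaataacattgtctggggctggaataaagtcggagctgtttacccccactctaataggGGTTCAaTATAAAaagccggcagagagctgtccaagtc
ATP6AP2: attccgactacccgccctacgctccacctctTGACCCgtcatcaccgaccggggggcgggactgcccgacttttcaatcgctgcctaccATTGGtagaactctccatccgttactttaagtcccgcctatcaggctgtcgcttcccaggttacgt
AGT: ctcagcTATAAAtagggcatcgTGACCCgg

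In the EDN1 stretch the capitals mark GATAAG on the minus strand at positions −137 to −132, GGTTCA at −38 to −33 and TATAAA at −31 to −26, counted back from the start site. In the AGT stretch they mark TATAAA at −30 to −25 and GGGTCA on the minus strand at −14 to −9. In the ATP6AP2 stretch they mark GGGTCA on the minus strand at −219 to −214 and CCAAT on the minus strand at −161 to −157, and there was no TATAAA. The TATAAA motif close to 30 bases before a start was thus present for EDN1 and AGT, and 1 ACE window also had one at −31 to −26, on the minus strand; the windows of the other 2 EDN1 start sites had none. Among all 35116 windows of the same length, 10.7% held TATAAA, 32.0% held CCAAT, 5.6% held GATAAG and 33.8% held at least 1 of the 4 half-sites. Half-sites are therefore common in such windows, and a match describes letters only. Windows of ECE1, EDNRB and ACE and another EDN1 window also held half-sites, while those of EDNRA and LNPEP did not.

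The 2 peptide precursors were close to 0 in undifferentiated cells and were higher in every differentiated library. EDN1 encodes the precursor of endothelin-1 (chromosome 6, 12290363 to 12297194, plus strand; gene positions are those of GENCODE 29 on GRCh38, while the authors used GRCh37). Its level was 4.85, 4.53, 5.12 and 4.97 TPM in differentiated replicates 21 to 24, against 0.116, 0.0763, 0.0574 and 0.217 TPM in undifferentiated replicates 17 to 20. The lowest differentiated library lay far above the highest undifferentiated one. The means were 4.87 ± 0.250 TPM in differentiated and 0.117 ± 0.0713 TPM in undifferentiated libraries (SD, n = 4 each), a ratio of 41.7 and a log2 difference of 2.39 (SE 0.10). All of it came from the single annotated transcript, EDN1-201, of 2033 bases. EDN1 had the largest upward difference among the 10 genes.

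AGT encodes angiotensinogen, the only known precursor of angiotensin peptides, which is made chiefly by liver and, in brain, by astrocytes (chromosome 1, 230702523 to 230714297, minus strand). It was at 1.26, 1.78, 1.49 and 1.68 TPM in differentiated replicates 21 to 24, against 0.0297, 0.0445, 0.0595 and 0.0308 TPM in undifferentiated replicates 17 to 20. The groups did not overlap, but the differentiated level remained low, and the mean over all libraries was under the 1 TPM that a gene needed to be tested. The ratio of the means was 37.7 and the log2 difference 1.29 (SE 0.08, from the fit with no minimum, as for EDNRB and ECE2). AGT-201 was its only annotated transcript.

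**Figure D1:**
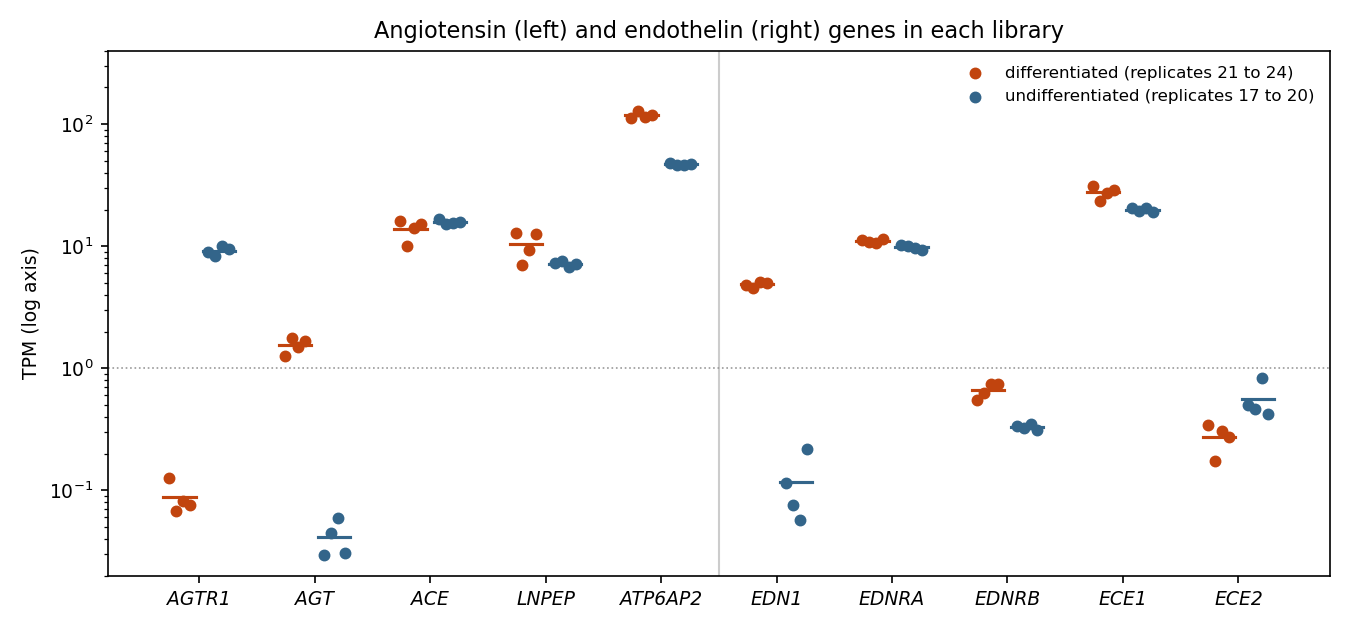
Level of each gene in TPM on a log axis in every library, differentiated libraries left of undifferentiated ones within each gene, with short lines at the group means; the dotted line marks 1 TPM. EDN1 and AGT lie near the bottom of the scale in undifferentiated libraries, and AGTR1 does so in differentiated libraries.

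The enzymes that process the peptides differed far less than the precursors, and ACE, LNPEP and ECE1 were well above 1 TPM in both groups. ACE, which converts angiotensin I to angiotensin II and degrades bradykinin, lies on chromosome 17 (63477061 to 63498380, plus strand). Its levels were 16.1, 10.1, 14.2 and 15.3 TPM in differentiated replicates 21 to 24, against 16.7, 15.2, 15.4 and 16.0 TPM in undifferentiated replicates 17 to 20. The groups overlapped, and replicate 22 was the lowest of the 8 libraries. The log2 difference was −0.19 (SE 0.13), and −0.05 without replicate 22. After median-of-ratios scaling it was −0.31 and after quantile normalization −0.37, so its size depended on the scaling. Much of the ACE signal lay outside transcripts annotated as protein-coding. Those transcripts summed to 6.25 ± 0.737 TPM in differentiated and 6.29 ± 0.645 TPM in undifferentiated libraries (SD, n = 4 each), which is 39.5% to 55.5% of the gene in differentiated and 36.2% to 43.0% in undifferentiated libraries. ACE-202, the most abundant transcript (25 exons, 4959 bases), was at 3.08 to 4.46 TPM in differentiated and 2.47 to 3.90 TPM in undifferentiated libraries, with overlap. The longer ACE-204, of 5120 bases, was at 0 to 1.48 TPM in differentiated and 1.12 to 2.02 TPM in undifferentiated libraries. These ranges also overlapped, but the ACE-204 mean was lower in differentiated libraries, at 0.510 against 1.61 TPM.

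LNPEP is the insulin-regulated aminopeptidase, which travels with the glucose transporter GLUT4 in fat cells, cleaves oxytocin and vasopressin and binds angiotensin IV (chromosome 5, 96935394 to 97037515, plus strand). It was at 12.9, 7.01, 9.27 and 12.7 TPM in differentiated replicates 21 to 24, against 7.27, 7.64, 6.72 and 7.14 TPM in undifferentiated replicates 17 to 20. Differentiated replicates 21, 23 and 24 lay above all undifferentiated libraries, and replicate 22 lay among them. The log2 difference was 0.45 (SE 0.17), and 0.61 without replicate 22. It was smaller after median-of-ratios scaling (0.33) and after quantile normalization (0.21). The main transcript, LNPEP-201, is the longest of the 10 main transcripts at 12752 bases. An antisense gene that overlaps it (ENSG00000247121) was at 1.59 TPM in differentiated and 0.539 TPM in undifferentiated libraries on average, and whether the counting used strand is not given in the sources used here.

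ECE1 makes endothelin-1 from big endothelin-1 (chromosome 1, 21217247 to 21345572, minus strand). Its levels were 31.1, 23.6, 27.4 and 29.1 TPM in differentiated replicates 21 to 24, against 20.4, 19.3, 20.6 and 19.1 TPM in undifferentiated replicates 17 to 20. Every differentiated library was above every undifferentiated one, with replicate 22 the nearest to them. The log2 difference was 0.46 (SE 0.08), 0.33 after median-of-ratios scaling and 0.30 after quantile normalization. Transcript ECE1-204 carried most of the gene, at 19.7 to 21.6 TPM in differentiated and 14.1 to 14.7 TPM in undifferentiated libraries. The second transcript of ECE1 by level was more variable, at 5.29, 0.733, 3.88 and 4.94 TPM in differentiated replicates 21 to 24, against 1.42 to 2.85 TPM in undifferentiated libraries, and replicate 22 was again the lowest.

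ECE2, a related converting enzyme known for activity at acidic pH (chromosome 3, 184276011 to 184293031, plus strand), was low in all libraries. It was at 0.346, 0.174, 0.309 and 0.273 TPM in differentiated replicates 21 to 24, against 0.501, 0.465, 0.835 and 0.426 TPM in undifferentiated replicates 17 to 20. The groups did not overlap, but all values were under 1 TPM, and its log2 difference was −0.28 (SE 0.09). Transcripts annotated as protein-coding made up 29.8% to 48.8% of the gene in differentiated and 16.7% to 55.9% in undifferentiated libraries. Their sums overlapped, at 0.070 to 0.133 TPM in differentiated and 0.0776 to 0.325 TPM in undifferentiated libraries. With these transcripts alone the log2 difference was −0.15. The read-through gene EEF1AKMT4-ECE2 shares sequence with ECE2 and averaged 0.119 TPM in differentiated and 0.0376 TPM in undifferentiated libraries. How reads were divided between the 2 genes makes the ECE2 values uncertain.

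**Figure D2:**
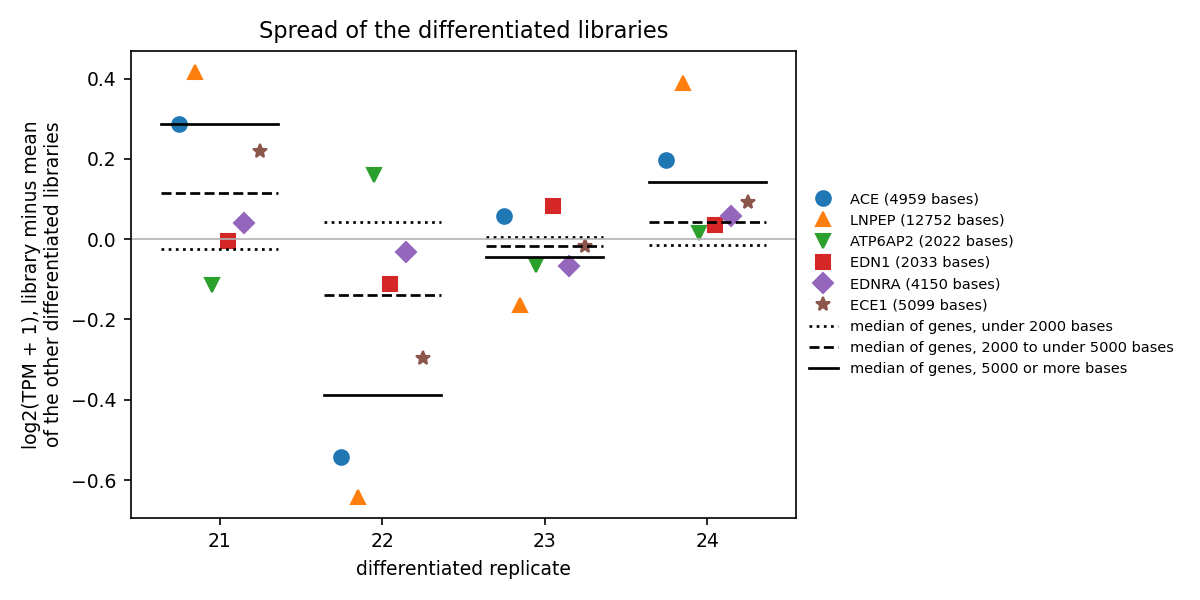
Each differentiated library's log2(TPM + 1) minus the mean of the other 3 differentiated libraries, for the 6 members that averaged at least 1 TPM both in differentiated libraries and over all 8 (symbols, with the length of the main transcript), and the median over protein-coding genes averaging at least 5 TPM in each length class (black lines). LNPEP, ACE and ECE1 are lowest in replicate 22 and highest in replicate 21, in the same order as the longest class. In replicates 21 and 22 ATP6AP2 runs the other way, against the median of its own class.

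Of the members, LNPEP and ECE1 fall in the class of 5000 bases or more, and ACE (4959 bases), EDNRA (4150), EDN1 (2033) and ATP6AP2 (2022) in the middle class. LNPEP, ACE and ECE1 deviated in the direction of their class medians in replicates 21 and 22. LNPEP and ACE did so by more than their class medians and ECE1 by less, and ATP6AP2 deviated the opposite way. Relative to the other differentiated libraries, replicate 22 was at −0.64 for LNPEP, −0.54 for ACE and −0.30 for ECE1 on the log2 scale, at 0.16 for ATP6AP2, and closer to 0 for EDN1 (−0.11) and EDNRA (−0.03). Replicate 21 was at 0.42, 0.29 and 0.22 for LNPEP, ACE and ECE1 and at −0.11 for ATP6AP2. The median difference between the groups was 0.14 for protein-coding genes with main transcripts under 2000 bases, 0.10 from 2000 to under 5000 bases and 0.006 at 5000 bases or more. The part of this length pattern in the differences of LNPEP, ACE and ECE1 was not tested.

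AGTR1 went the opposite way to its ligand's precursor. It encodes the angiotensin II type 1 receptor (chromosome 3, 148697784 to 148743008, plus strand), the receptor through which angiotensin II constricts vessels and promotes catecholamine release. Its levels were 0.126, 0.0679, 0.0814 and 0.0762 TPM in differentiated replicates 21 to 24, against 8.94, 8.33, 9.96 and 9.59 TPM in undifferentiated replicates 17 to 20. All differentiated libraries were close to 0 and all undifferentiated libraries were close to one another. The means were 0.0879 ± 0.0260 TPM in differentiated and 9.21 ± 0.719 TPM in undifferentiated libraries (SD, n = 4 each), so that the undifferentiated mean was 105 times the differentiated one, and the log2 difference was −3.23 (SE 0.09). Of its 9 annotated transcripts, 8 were above 0 in undifferentiated libraries and 3 of these in differentiated ones. AGTR1-202 was the most abundant, at 0.126, 0.0273, 0 and 0.0762 TPM in differentiated replicates 21 to 24, against 3.95, 3.37, 5.06 and 3.51 TPM in undifferentiated replicates 17 to 20. Transcripts annotated as protein-coding made up 85.7% to 94.4% of the undifferentiated AGTR1 level.

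The endothelin receptors differed far less than EDN1. EDNRA, the type A receptor that mediates vasoconstriction and prefers endothelin-1 and endothelin-2 (chromosome 4, 147480917 to 147544954, plus strand), was at 11.3, 10.9, 10.7 and 11.4 TPM in differentiated replicates 21 to 24, against 10.3, 9.97, 9.61 and 9.28 TPM in undifferentiated replicates 17 to 20. The groups did not overlap, by a narrow margin. The log2 difference was 0.16 (SE 0.06), close to the median of 0.10 over all tested genes; it was 0.04 after median-of-ratios scaling and changed sign to −0.053 after quantile normalization, so no direction is given for it. Its main transcript EDNRA-201 was at 8.44, 8.70, 8.70 and 8.51 TPM in differentiated replicates 21 to 24, against 7.60, 7.44, 6.55 and 6.63 TPM in undifferentiated replicates 17 to 20.

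EDNRB, the type B receptor, binds all endothelins alike (chromosome 13, 77895481 to 77975529, minus strand). It was at 0.554, 0.623, 0.741 and 0.751 TPM in differentiated replicates 21 to 24, against 0.336, 0.324, 0.349 and 0.310 TPM in undifferentiated replicates 17 to 20. The groups did not overlap, and no library reached 1 TPM. The ratio of the means was 2.03 and the log2 difference 0.33 (SE 0.06). Its 2 detected transcripts had no stable division: EDNRB-202 held 18.5% to 100% of the gene in differentiated and 0% to 36.1% in undifferentiated libraries. EDNRA thus remained well above EDNRB in both groups, at means of 11.1 and 0.667 TPM in differentiated libraries, against 9.79 and 0.330 TPM in undifferentiated libraries.

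ATP6AP2 is counted with the angiotensin system as a cell surface receptor of its upstream part, and is also an accessory subunit of the V-ATPase, the proton pump of lysosomes and secretory vesicles (chromosome X, 40579372 to 40606848, plus strand). It was at 112, 129, 115 and 120 TPM in differentiated replicates 21 to 24, against 48.2, 46.0, 46.2 and 47.0 TPM in undifferentiated replicates 17 to 20. The groups were widely separated. The means were 119 ± 7.59 TPM in differentiated and 46.8 ± 0.988 TPM in undifferentiated libraries (SD, n = 4 each), a ratio of 2.54 and a log2 difference of 1.33 (SE 0.05). Transcript ATP6AP2-201 held 98.0% to 99.6% of the gene in differentiated and 96.2% to 98.9% in undifferentiated libraries.

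**Figure D3:**
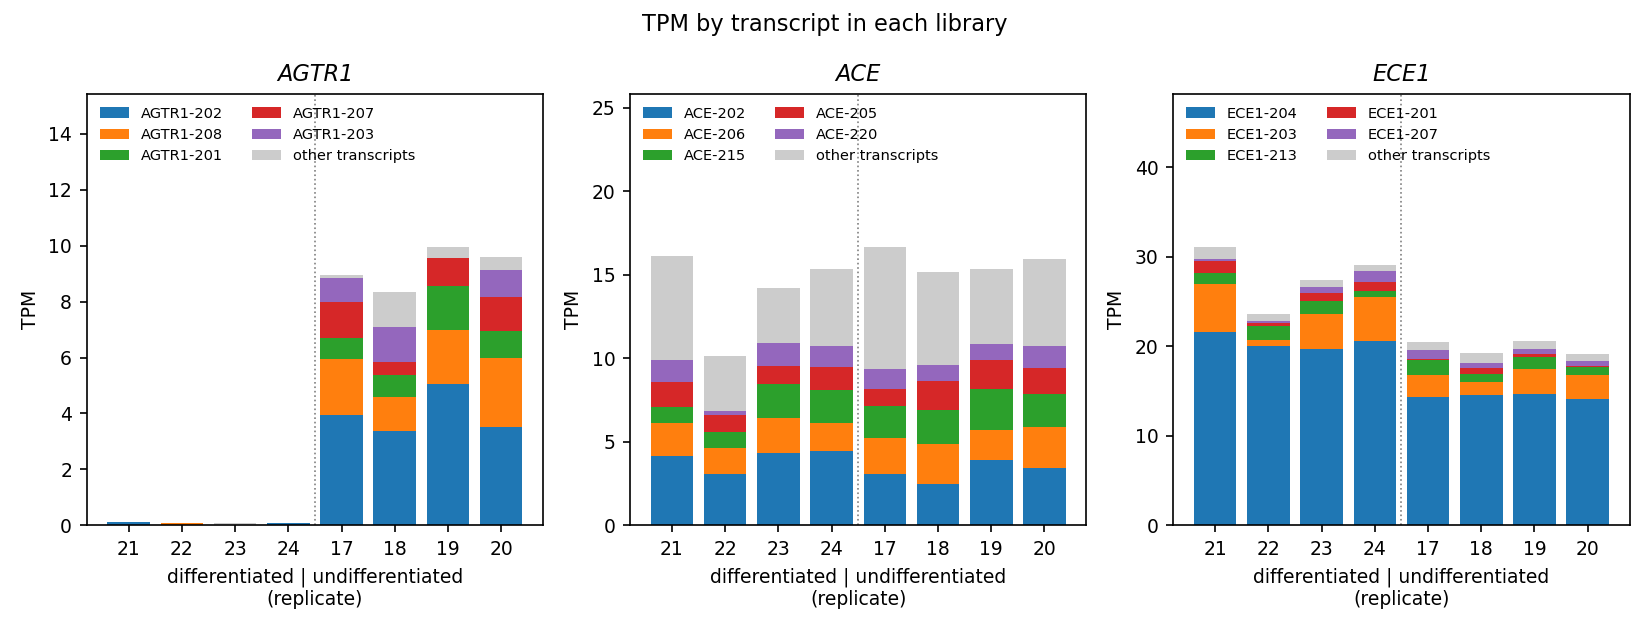
TPM in each library, split by transcript, with differentiated libraries left of the dotted line and undifferentiated libraries right of it. AGTR1 (left) is spread over several transcripts in undifferentiated libraries and close to 0 in differentiated ones, ACE (middle) is divided among many transcripts in both groups, and ECE1 (right) rests mainly on ECE1-204. The ACE and ECE1 bars of replicate 22 are the lowest of the differentiated libraries.

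The order of the 10 genes by level, per length, was thus rearranged. In differentiated libraries it ran ATP6AP2, ECE1, ACE, EDNRA, LNPEP, EDN1, AGT, EDNRB, ECE2 and AGTR1. In undifferentiated libraries it ran ATP6AP2, ECE1, ACE, EDNRA, AGTR1, LNPEP, ECE2, EDNRB, EDN1 and AGT. Neighbours whose ranges overlapped were ACE with EDNRA and EDNRA with LNPEP in differentiated libraries, and EDNRA with AGTR1 and EDN1 with AGT in undifferentiated libraries. AGTR1 was at rank 10 in differentiated libraries and at rank 5 in undifferentiated libraries.

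Groups did not overlap for 8 of the 10 genes, and the exceptions were ACE and LNPEP. ECE2 did not overlap as a whole gene, but its protein-coding transcripts did. As deposited, 6 of the 8 were higher in differentiated libraries, among them EDNRA, whose sign depended on the scaling, and 2 were lower. Of the 7 genes past the minimum of 1 TPM, 5 did not overlap, beside 49.6% of all 17077 genes past it. The 10 genes were chosen with this contrast known, so nothing is read from their count, and AGT, EDNRB and ECE2 were under that minimum.

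**Figure D4:**
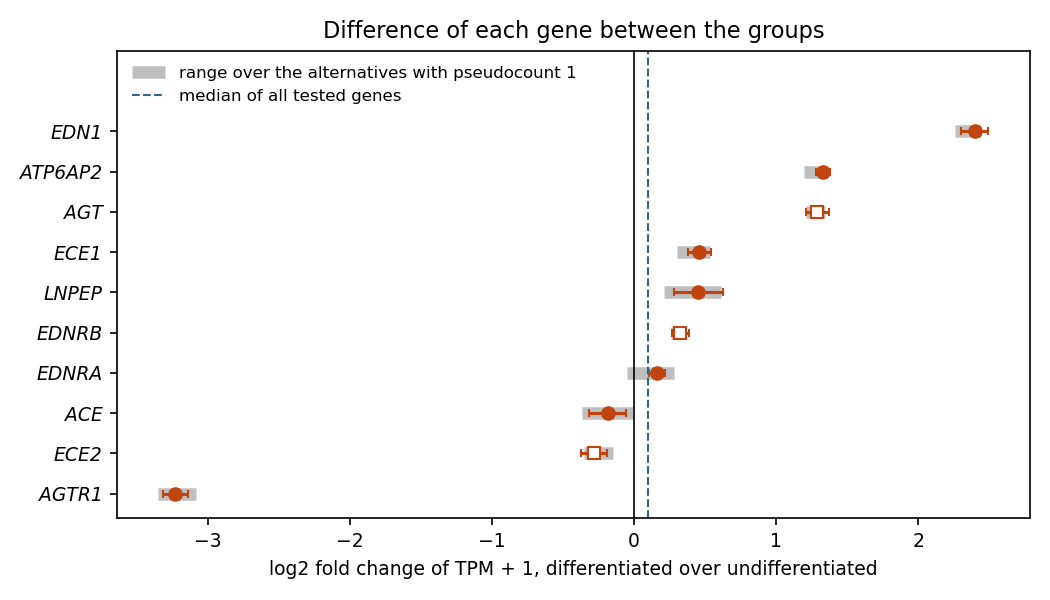
Log2 fold change of TPM + 1 (differentiated over undifferentiated) of each gene with its SE; filled circles are genes averaging at least 1 TPM, open squares the 3 genes under it, taken from the fit with no minimum. Grey bars give the range over the alternative settings that keep the pseudocount of 1, and the dashed line is the median of all tested genes, 0.10. AGTR1 at −3.23 and EDN1 at 2.39 lie at the ends, and the range of EDNRA crosses 0.

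Lane was the only technical split in the labels, and the choice of the genes did not use it. Lane 7 held undifferentiated replicates 17 and 18, and lane 8 held the remaining 6 libraries. Between lane 8 and lane 7 of the undifferentiated libraries, limma called 0 of the 7 tested members, and 0 of them had an unadjusted p under 0.05. The largest absolute log2 difference between lanes was 0.16, for AGTR1, with an adjusted p of 0.989. EDN1 is 1 of the 7 but was at most 0.217 TPM in these libraries, so its lane comparison says nothing. Over all genes the same limma comparison called 29 of 17077 (0.17%), and 713 had an unadjusted p under 0.05. Within lane 8 alone the AGTR1 difference between differentiated and undifferentiated libraries was −3.31.

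The genes nearest to AGTR1 in level over the 8 libraries, by Euclidean distance of log2(TPM + 1), were DRGX, GFRA3 and LINC02118, at distances of 0.57, 0.92 and 0.97. DRGX, a homeobox factor of dorsal root ganglion neurons, averaged 0.154 ± 0.0754 TPM in differentiated and 7.92 ± 0.827 TPM in undifferentiated libraries. GFRA3, the receptor of the neurotrophic factor artemin, averaged 0.328 ± 0.0994 TPM in differentiated and 7.28 ± 0.801 TPM in undifferentiated libraries, and the long non-coding RNA LINC02118 averaged 0.388 ± 0.293 TPM in differentiated and 10.6 ± 0.820 TPM in undifferentiated libraries (SD, n = 4 each). The genes nearest to EDN1 were MPP4, VWA5A and ANXA3, at distances of 0.27, 0.33 and 0.40. Their means were 5.12 TPM (MPP4), 4.92 TPM (VWA5A) and 5.37 TPM (ANXA3) in differentiated libraries, against 0.124 TPM (MPP4), 0.220 TPM (VWA5A) and 0.199 TPM (ANXA3) in undifferentiated libraries.

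Genes outside the 10 were taken from lists of the 2 pathways and tested with limma across all 17077 genes. The threshold was a Benjamini-Hochberg adjusted p under 0.05. The lists were drawn up with earlier results of these data known, so their counts and medians are given as descriptions. Across all genes limma called 51.3%, 33.9% higher and 17.4% lower in differentiated libraries, so a call in itself is common here. The split depended on scaling: 5791 genes were higher and 2970 lower as deposited, 4605 higher and 4457 lower after median-of-ratios scaling, and 4206 higher and 5061 lower after quantile normalization. Among 21 further angiotensin enzymes and receptors, 12 were tested, of which 9 rose, 2 fell (NLN and PREP) and 1 did not pass (THOP1). Their median log2 difference was 0.95, beside 0.10 over all tested genes, and 8 rose and 3 fell under either median-of-ratios scaling or quantile normalization. All 12 but AGTRAP encode peptidases, so the list holds peptidases among those that rose and those that fell. MME, or neprilysin, which converts angiotensin I to angiotensin 1-7 and also degrades endothelin-1, rose to 22.3 ± 4.51 TPM in differentiated libraries, against 4.80 ± 0.616 TPM in undifferentiated libraries (log2 difference 1.99, SE 0.16, limma adjusted p = 1.43e-05). PRCP, a lysosomal carboxypeptidase that inactivates angiotensin II, rose to 135 ± 4.94 TPM in differentiated libraries, against 37.5 ± 1.16 TPM in undifferentiated libraries (1.82, SE 0.04, adjusted p = 2.25e-08). The aminopeptidases ERAP1 and ERAP2, known chiefly for trimming antigenic peptides in the endoplasmic reticulum, rose by 1.52 (SE 0.13, limma adjusted p = 2.03e-05) and 1.39 (SE 0.10, adjusted p = 1.01e-05). AGTRAP, which promotes internalisation of AGTR1, rose to 29.1 ± 1.47 TPM in differentiated libraries, against 20.8 ± 1.71 TPM in undifferentiated libraries (0.47, SE 0.07, limma adjusted p = 0.000543).

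Other receptors of the system were at or near 0. AGTR2, the type 2 receptor, reached at most 0.0192 TPM in differentiated and 0.0348 TPM in undifferentiated libraries, and MAS1, a receptor for angiotensin 1-7, was listed at 0 in all 8.

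Among 10 further endothelin ligands and related proteases, 5 were tested, of which 3 rose, 1 fell and PCSK7 did not pass (limma adjusted p = 0.103), with a median log2 difference of 0.67. MMEL1, a relative of neprilysin, rose to 4.22 ± 0.821 TPM in differentiated libraries, against 1.33 ± 0.268 TPM in undifferentiated libraries (1.16, SE 0.14, limma adjusted p = 0.000209). ECEL1, a neuronal relative of ECE1, rose to 5.17 ± 0.830 TPM in differentiated libraries, against 2.41 ± 0.210 TPM in undifferentiated libraries (0.85, SE 0.11, limma adjusted p = 0.000294). FURIN, the proprotein convertase that cuts the endothelin-1 precursor, rose to 6.13 ± 0.547 TPM in differentiated libraries, against 3.46 ± 0.193 TPM in undifferentiated libraries (0.67, SE 0.08, limma adjusted p = 0.000192). PCSK6, another convertase, fell to 1.80 ± 0.449 TPM in differentiated libraries, against 6.60 ± 1.40 TPM in undifferentiated libraries (−1.44, SE 0.17, limma adjusted p = 0.000143). The other ligands were low: EDN2 averaged 0.271 TPM in differentiated and 0.260 TPM in undifferentiated libraries, and EDN3 averaged 0.0693 TPM in differentiated and 0.0384 TPM in undifferentiated libraries.

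The kinin genes, which share ACE with the angiotensin system, were mostly under 1 TPM. Of 8, 2 were tested. XPNPEP2, an aminopeptidase that degrades bradykinin, fell to 0.631 ± 0.0727 TPM in differentiated libraries, against 2.15 ± 0.392 TPM in undifferentiated libraries (−0.94, SE 0.12, limma adjusted p = 0.000305), and CPM did not pass (adjusted p = 0.518). BDKRB2, the constitutive bradykinin receptor, was under the minimum; it was at 0.956 to 1.88 TPM in differentiated and 0.0712 to 0.181 TPM in undifferentiated libraries, without overlap.

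Downstream of AGTR1 and the endothelin receptors, 20 of 22 genes of Gq coupling and receptor desensitisation were tested, of which 9 rose, 6 fell and 5 did not pass. Their median log2 difference was 0.14, near that of all genes, and the split was 8 against 8 after median-of-ratios scaling and 7 against 8 after quantile normalization. The phospholipase C beta genes moved in both directions. PLCB1 rose to 23.2 ± 2.93 TPM in differentiated libraries, against 6.39 ± 0.290 TPM in undifferentiated libraries (1.70, SE 0.09, limma adjusted p = 1.67e-06), and PLCB4 fell to 7.07 ± 2.74 TPM in differentiated libraries, against 15.3 ± 0.985 TPM in undifferentiated libraries (−1.08, SE 0.25, limma adjusted p = 0.00616). GRK5, a kinase that phosphorylates active receptors, rose to 23.0 ± 0.128 TPM in differentiated libraries, against 6.29 ± 0.324 TPM in undifferentiated libraries (1.72, SE 0.05, limma adjusted p = 7.27e-08). ITPR2, an inositol trisphosphate receptor of the endoplasmic reticulum, rose by 0.99 (SE 0.26, limma adjusted p = 0.0118). Its groups overlapped, at 7.47 to 19.0 TPM in differentiated and 6.26 to 7.57 TPM in undifferentiated libraries. The overlap came from differentiated replicate 22, at 7.47 TPM, against 15.5 to 19.0 TPM in the other differentiated libraries. Within lane 8 the limma adjusted p of ITPR2 was 0.0627.

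Of 19 other V-ATPase subunits, the complex that ATP6AP2 accompanies, 18 were tested. Of these 11 rose, 2 fell (ATP6V1B2 and ATP6V1E2) and 5 did not pass, with a median log2 difference of 0.37; 9 rose and 3 fell after median-of-ratios scaling, and 10 rose and 3 fell after quantile normalization. The other accessory subunit, ATP6AP1, rose to 68.1 ± 6.92 TPM in differentiated libraries, against 34.5 ± 2.08 TPM in undifferentiated libraries (0.96, SE 0.08, limma adjusted p = 1.74e-05). Of the membrane subunits, ATP6V0C, which forms the proton-carrying ring, rose by 0.85 (SE 0.16, limma adjusted p = 0.00232), ATP6V0E1 by 0.75 (SE 0.06, adjusted p = 1.06e-05) and ATP6V0E2 by 0.58 (SE 0.06, adjusted p = 5.06e-05). On the same scale ATP6AP2 itself differed by 1.33.

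**Figure D5:**
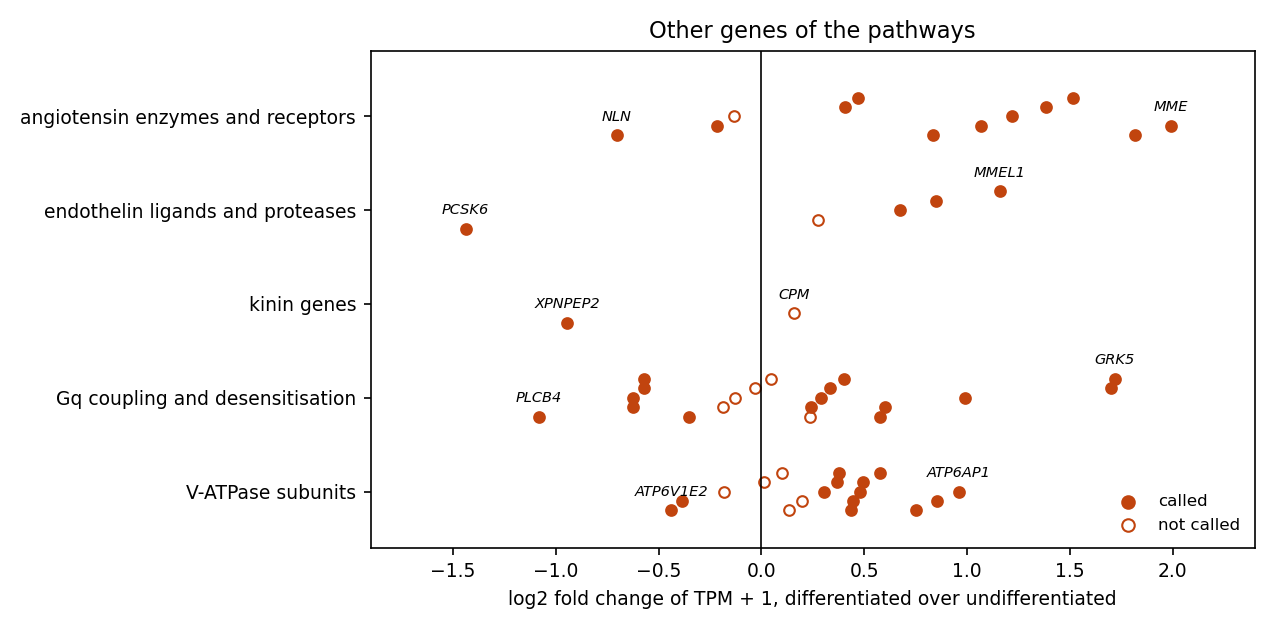
Log2 fold change of TPM + 1 (differentiated over undifferentiated) of each tested gene of the 5 pathway lists; filled points were called by limma and open points were not. The angiotensin list lies mostly right of 0, and the Gq list lies on both sides.

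Marker genes expected in SH-SY5Y cells and those of other cell types were read over the same contrast, and the lists did not move alike. The summed level of 10 noradrenergic neuroblastoma markers, which SH-SY5Y cells should hold, was 1542 to 1748 TPM in differentiated and 2306 to 2381 TPM in undifferentiated libraries; 1 rose, 7 fell and 2 did not pass. Of 9 endothelial markers, the cell type that endothelin-1 is named for, 8 were analysed, none averaged 1 TPM, and their sum was 0.650 to 1.77 TPM in differentiated and 0.799 to 0.838 TPM in undifferentiated libraries. The highest of them was EMCN, at 0.138 to 1.24 TPM in differentiated and 0.547 to 0.728 TPM in undifferentiated libraries. KDR was at 0.0815 to 0.213 TPM in differentiated and 0 to 0.0445 TPM in undifferentiated libraries, without overlap, and VWF, CDH5 and ERG were at or near 0 in both groups. The 10 fibroblast and mesenchymal markers summed to 830 to 985 TPM in differentiated and 402 to 449 TPM in undifferentiated libraries. Of 8 tested, 5 rose and 0 fell, and DCN, LUM and TWIST1 did not pass. The largest part of the sum was VIM, at 488 to 624 TPM in differentiated and 189 to 214 TPM in undifferentiated libraries. PRRX1 was near 0 in both groups, and COL1A2 averaged 0.143 TPM in differentiated and 0.142 TPM in undifferentiated libraries. Smooth muscle and pericyte markers would accompany vascular AGTR1 and EDNRA. They summed to 3795 to 6704 TPM in differentiated and 3329 to 3666 TPM in undifferentiated libraries. Of 6 tested, 2 rose (RGS5 and NOTCH3), 2 fell (MYH11 and SMTN), and CNN1 and PDGFRB did not pass. Nearly all of the sum was RGS5, at 3741 TPM in differentiated replicate 22 and 5327 to 6618 TPM in the other differentiated libraries. PDGFRB averaged 36.1 TPM in differentiated and 32.0 TPM in undifferentiated libraries, and DES was at or near 0. Schwann and melanocyte markers, which would accompany EDNRB, summed to 25.3 to 30.6 TPM in differentiated and 13.4 to 15.3 TPM in undifferentiated libraries; 2 rose and 0 fell of 5 tested, and SOX10 was listed at 0 in all 8. The part of the noradrenergic, endothelial, mesenchymal, pericyte and Schwann markers in the results for the 10 genes was not tested.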

How the data were processed

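RNA sequencing of 4 differentiated and 4 undifferentiated SH-SY5Y libraries was used. The authors deposited TPM for 194993 Ensembl transcripts in 8 libraries; the submitters' processing notes list Salmon, FastQC 0.11.2 and build GRCh37, and per the labels the kit was an Illumina stranded mRNA kit. For Salmon, the version, annotation and strand setting were not given in the sources used here. Transcripts were matched by identifier to GENCODE 29 (GRCh38, used for names, lengths and positions); 180930 (92.8%) matched, holding 93.2% to 95.0% of a library's TPM, and 16265 to 17370 genes reached 1 TPM in a library. TPM were summed per gene, and log2 of the deposited TPM plus a pseudocount of 1 was fitted with limma 3.58.1 in R 4.3.3 (trend, Benjamini-Hochberg over genes averaging at least 1 TPM, two-sided). The step was tested on simulated data. Transcript length means that of a gene's most abundant transcript, in protein-coding genes averaging at least 5 TPM.

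The members and the 5 pathway and 5 marker lists were chosen with earlier results of these data known. Named were all members, up to 4 called genes per pathway list with the largest differences, 8 further pathway genes whatever their level (some are not reported here), and the 3 genes nearest to AGTR1 and to EDN1; NLN, PREP, THOP1, CPM, PCSK7, ATP6V1B2 and ATP6V1E2 of the lists, DPP3 and single marker genes were named after their values were seen. Alternatives were pseudocounts of 0.1 and 0.5, no minimum or 5 TPM, median-of-ratios scaling, quantile normalization, lane, no trend, protein-coding transcripts only and leaving out each library.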

Additional observations from a re-analysis of the deposited data

Results flagged for a closer look

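In 64 groups of 4 libraries of the named genes, 3 had 1 library far from the other 3 by Dixon's test (the gap to the nearest library over the whole range, above the 95% critical value); chance alone flags about 1 in 20 such groups. MME was at 15.7 TPM in differentiated replicate 22, against 24.0 to 25.6 TPM in the other differentiated libraries. FURIN was at 3.18 TPM in undifferentiated replicate 19, against 3.51 to 3.58 TPM in the others. AGTR2 was at 0.0175 TPM in undifferentiated replicate 20, against 0.0339 to 0.0348 TPM in the others. These AGTR2 values are so low that their error cannot be stated, so nothing is read from that flag.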

How the results depend on the processing

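Of the 10 members, all but EDNRA kept their sign under every alternative run for them; EDNRA changed sign under quantile normalization (−0.053). At a pseudocount of 0.1 the log2 difference was −5.64 for AGTR1, 4.57 for EDN1, 3.54 for AGT, 0.83 for EDNRB and −0.79 for ECE2. ACE ran from −0.37 after quantile normalization to −0.01 with protein-coding transcripts only. The median over all genes moved to −0.02 after median-of-ratios scaling and −0.06 after quantile normalization. With a minimum of 5 TPM, 0 genes of the endothelin list and 0 of the kinin list were called, since 1 and 0 of their genes were left; with no minimum, 3 kinin genes were called, 2 higher and 1 lower. For the other lists and settings the number of calls stayed within 1.5 times. DPP3, a called angiotensin peptidase, lost its call in 10 of 17 alternatives (highest limma adjusted p 0.166). No paired analysis was possible because the replicate numbers 17 to 24 are not shared between the groups. Depth is unknown from TPM, so values near 0 (AGTR1 in differentiated and AGT and EDN1 in undifferentiated libraries) and ratios against them have an error that cannot be given.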
